A study of Rattus norvegicus with 18 samples.

Results

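The 9 genes of MHC class I peptide processing were followed in cultured rat aortic rings treated with VEGF or Ang1, namely the peptide transporter subunits Tap1 and Tap2, the loading chaperone Tapbp, the immunoproteasome subunits Psmb8, Psmb9 and Psmb10, the proteasome activator subunits Psme1 and Psme2, and the class I light chain B2m. Every probe set annotated to 1 of these 9 genes alone was taken, which gave 12 of 31256 probe sets (9 of the 13811 genes named by a probe set of their own), 11 on the Affymetrix RAE230A array (array A) and 1 on the RAE230B array (array B). Of the 12, 10 passed a filter on low signal (mean level at or above the 40th percentile), and these 10 covered 8 of the 9 genes. The only Tap2 probe set and the second Tap1 probe set lay below it.

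MHC class I molecules present peptides cut from proteins of the cell's own interior. Proteasomes cut the proteins, the transporter made of Tap1 and Tap2 carries the peptides into the endoplasmic reticulum, and tapasin (encoded by Tapbp) holds empty class I molecules at the transporter until a peptide binds. Interferon-gamma is the classical inducer of the whole set: it exchanges the constitutive catalytic subunits of the proteasome for those encoded by Psmb8, Psmb9 and Psmb10 and raises the transporter and the activator subunits together, in endothelium as in most nucleated cells.

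The RNA came from 2 mm rings of thoracic aorta of 3 male Fisher 344 rats aged 5 weeks, kept in serum-free culture, an explant model in which endothelial sprouts grow out of the vessel wall together with other wall cells. The VEGF group received recombinant human vascular endothelial growth factor at 10 ng/ml on day 13. The Ang1 group received recombinant human angiopoietin-1, a ligand of the endothelial receptor Tek, at 100 ng/ml with a poly-His antibody at 5 µg/ml, also on day 13. The untreated group was cultured for 14 days with neither agent. The labels give the antibody for the Ang1 group alone, so its part in the Ang1 differences cannot be told apart from that of angiopoietin-1. Each group had 3 RNAs, each from 4 to 6 pooled rings, taken 20 h after treatment by the sample labels and 18 h by the design text, and each RNA was read on both array types. The design text lets each animal give 1 RNA to each group, but the replicate numbers are not tied to animals, so the p-values measure the spread between these RNAs. In the expression data, deviations from the group mean correlated above 0.1 between each VEGF or Ang1 RNA and the untreated RNA of the same number. Some pairs with different numbers did so too, up to 0.33 on array A, so the pairing stays uncertain. Counts and calls that change when the number is a block in the fit are given with that value too.

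Before the values, the promoter letters of the members are shown, because the genes are known as a group induced together by interferon. The windows are those of RefSeq on the GRCr8 build, 250 bases before to 50 bases after a start site, which for some genes lies inside the gene's outermost coordinates; all 9 members had one. 3 motifs were searched on both strands, and they were chosen with the sequences at hand. The core of the interferon-stimulated response element, GAAA, any 2 bases and GAAA again, was found in 7 of 9 member windows, against 1312 of 33469 promoters (3.92%). Psmb9 and Psme1 held no match, which says only that these letters are not in their windows. GGACTTTCC, letters of an NF-kB site, was found in Tap1 and B2m and in 102 promoters in all (0.305%), and TTCNNNGAA, the gamma-interferon activation site, in Psmb8 alone among the members, against 2970 promoters (8.87%). The matches describe letters and show neither a bound site nor a cause.

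The whole Tap1 and Psmb10 windows are printed because these genes had the largest VEGF differences among the 10 tested probe sets, and 40-base windows around the response element core show the letters in the other 5 genes. Sequences run 5′ to 3′ on the gene's own strand, and capitals mark the matches. In Tap1 the first capital run is the response element core read on the opposite strand and the second is the NF-kB site. The Tap1 window lies at chr20:4668494-4668793 (minus strand) and the Psmb10 window at chr19:50743243-50743542 (minus strand).
Tap1: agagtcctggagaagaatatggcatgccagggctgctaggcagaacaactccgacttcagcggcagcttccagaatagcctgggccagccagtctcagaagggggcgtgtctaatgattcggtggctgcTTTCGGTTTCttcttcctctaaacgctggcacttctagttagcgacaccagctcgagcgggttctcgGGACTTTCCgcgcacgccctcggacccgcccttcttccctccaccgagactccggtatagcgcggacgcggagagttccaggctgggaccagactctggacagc
Psmb10: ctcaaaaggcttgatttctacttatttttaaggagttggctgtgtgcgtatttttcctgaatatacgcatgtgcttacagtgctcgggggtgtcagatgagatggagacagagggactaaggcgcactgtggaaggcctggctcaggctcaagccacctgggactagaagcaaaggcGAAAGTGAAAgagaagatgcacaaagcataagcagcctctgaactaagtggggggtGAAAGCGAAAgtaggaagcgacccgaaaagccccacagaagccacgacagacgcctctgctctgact

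The 40-base windows lie at chr20:4652313-4652352 for Tap2, chr20:4967879-4967918 for Tapbp, chr20:4657011-4657050 for Psmb8 and chr15:33052780-33052819 for Psme2, all on the minus strand, and at chr3:129549165-129549204 for B2m on the plus strand. The core in Psmb8 is read on the opposite strand, the Tapbp window holds a second match that overlaps the capitals, and the B2m window holds its NF-kB match, on the opposite strand, just after them.
Tap2: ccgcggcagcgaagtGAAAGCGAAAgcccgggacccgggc
Tapbp: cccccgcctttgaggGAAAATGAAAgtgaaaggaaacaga
Psmb8: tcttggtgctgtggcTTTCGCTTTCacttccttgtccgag
Psme2: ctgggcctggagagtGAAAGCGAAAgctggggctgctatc
B2m: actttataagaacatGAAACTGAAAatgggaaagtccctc

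**Figure D1:**
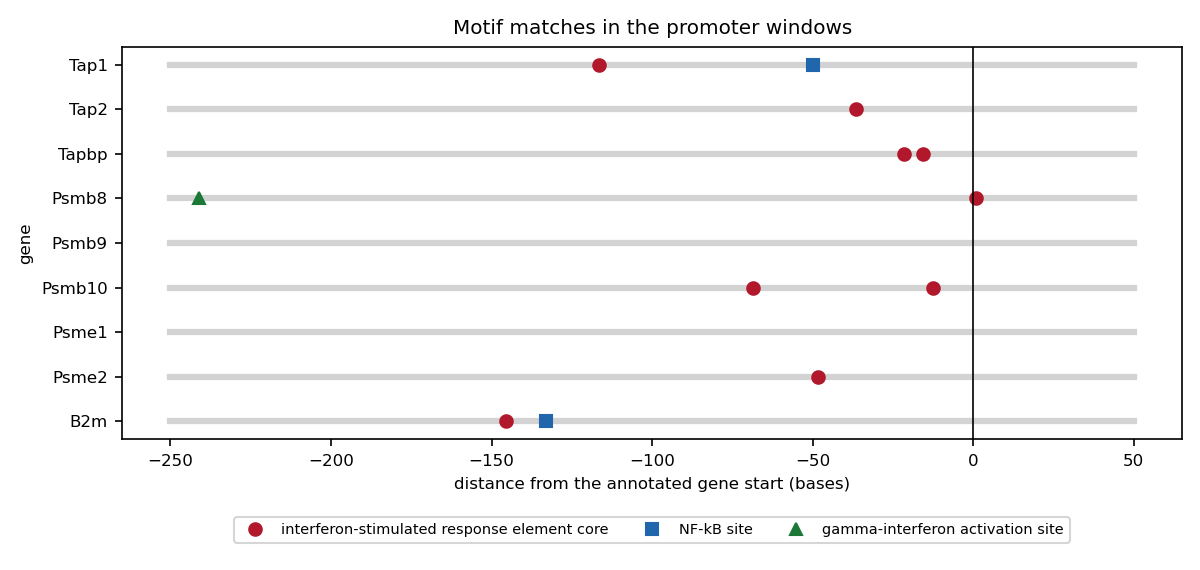
Motif matches in the 9 promoter windows, by distance in bases from the start site, with 1 row per gene and 1 marker shape per motif. 7 genes hold the interferon-stimulated response element core, Tapbp and Psmb10 with 2 matches each, and all of these lie between -150 and 6.

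5 members lie on chromosome 20. Tap2 (chr20:4638257-4652296), Psmb8 (chr20:4654068-4657049), Tap1 (chr20:4658171-4668543) and Psmb9 (chr20:4668952-4674421) follow one another within 36.2 kb with 0 annotated genes between them, and 30 genes separate Psmb9 from Tapbp (chr20:4958821-4967958). Tap1 and Psmb9 are transcribed away from each other across 408 bases, and their promoter windows share 44 bases. Psme1 (chr15:33038962-33041849) and Psme2 (chr15:33048452-33053055) are also direct neighbours, 6602 bases apart. Psmb10 (chr19:50740808-50743292) and B2m (chr3:129549236-129555354) stand alone.

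Levels are log2(signal + 16) after quantile normalisation within an array type, differences are log2 differences with the standard error (SE) of the limma fit, and group means are given ± SD with n = 3. A level ranks 1 probe set across RNAs and is not compared between probe sets. Of the RNAs, 2 stood apart. On array A the median of an RNA's correlations with the remaining ones was 0.69 for Ang1 replicate 2, 0.79 for untreated replicate 2 and at least 0.87 for each of the 7 remaining RNAs. For array B these values were 0.43, 0.75 and at least 0.81. The Gapdh 3' control signal on array A was 446.9 in Ang1 replicate 2, 64.4 in untreated replicate 2 and 2218 to 3247 in the others. The ratio of the actin 3' to 5' control signals on array A, a measure of how far the labelled RNA reached, was 8.79 to 12.4 in VEGF RNAs, 6.18 to 8.29 in Ang1 RNAs and 1.86 to 7.70 in untreated RNAs. Untreated replicate 1 is labelled as amplified by a 2-cycle procedure, and the labels of the other RNAs give no number of cycles. Whether it was amplified differently from them is therefore not known, and it can be assessed only by leaving it out. Of 11 endothelial and 11 smooth muscle markers on array A, 10 each passed the filter, as did 14 of 15 macrophage markers, while 8 of 10 lymphocyte markers lay below it. Of all array A probe sets 9520 of 15923 passed, so passing alone does not identify the tissue. On array B 3 of 4 endothelial and 3 of 7 smooth muscle markers passed.

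On array A the members mostly read higher in VEGF RNAs than in untreated RNAs, and none passed the test. Against untreated rings, 8 of 9 tested member probe sets had a difference above 0, beside 49.1% of all 9520 tested probe sets, and 0 passed an adjusted p of 0.05 in limma with Benjamini-Hochberg adjustment, beside 0% of all. At an unadjusted p below 0.05 the limma count was 0 of 9 members, beside 1.66% of all probe sets. For 3 of the 9, Tap1, Psmb10 and Tapbp, all 3 VEGF values lay above all 3 untreated values, beside 3.59% of all probe sets, and for 0 of 9 all lay below, beside 4.79%. With the replicate number as a block, limma counted 2 of 9 members at an unadjusted p below 0.05, Tap1 and Psmb10, beside 3.12% of all probe sets, and still called 0 at the adjusted threshold. Within replicate numbers, 5 of 9 members (Tap1, Psmb10, Tapbp, Psmb8 and Psme2) were higher in VEGF than in untreated RNA in all 3 pairs, beside 11.9% of all probe sets. The median difference of the 8 genes with a tested probe set, taking the brightest per gene, was 0.61, beside -0.01 over all probe sets. With Ang1 replicate 2 and untreated replicate 2 both left out it was 0.41. The count above 0 depended on the normalisation. With median centring in place of quantile normalisation, the B2m probe sets lay at -0.31 and -0.03 and Psme2 at -0.003.

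Ang1 against untreated rings gave a smaller median than VEGF. Of the 9 member probe sets, 8 lay above 0, beside 46.7% of all, 0 were called at the adjusted threshold, beside 0% of all, and 1, Tapbp, had an unadjusted limma p below 0.05, beside 3.18% of all probe sets. Tapbp was also the 1 member with all Ang1 values above all untreated values, beside 3.52% of all, and 0 members had all below, beside 5.57%. With median centring in place of quantile normalisation, both B2m probe sets, Psme2 and Psmb8 fell below 0 as well, and the median of all probe sets was -0.23. The median over the 8 genes was 0.22, beside -0.03 over all probe sets. It was 0.55 without Ang1 replicate 2 and 0.62 without untreated replicate 1, but 0.052 without Ang1 replicate 1 and 0.26 without both RNAs that stood apart. Within replicate numbers, 1 of 9 members, Tapbp, was higher in Ang1 than in untreated RNA in all 3 pairs, beside 14% of all probe sets. The VEGF and Ang1 comparisons share their untreated RNAs, so the 2 medians are not independent of each other.

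Set directly against Ang1, VEGF gave a median of 0.19 over the 8 genes, beside 0.02 over all probe sets, with 7 of 9 member probe sets above 0, beside 52.5% of all. None was called at the adjusted threshold, beside 0% of all, and 0 had an unadjusted limma p below 0.05, beside 1.99% of all. No member separated the groups in either direction, beside 3.78% of all probe sets with all VEGF values higher and 4.23% with all VEGF values lower. The treatments were thus not shown to differ for any member.

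**Figure D2:**
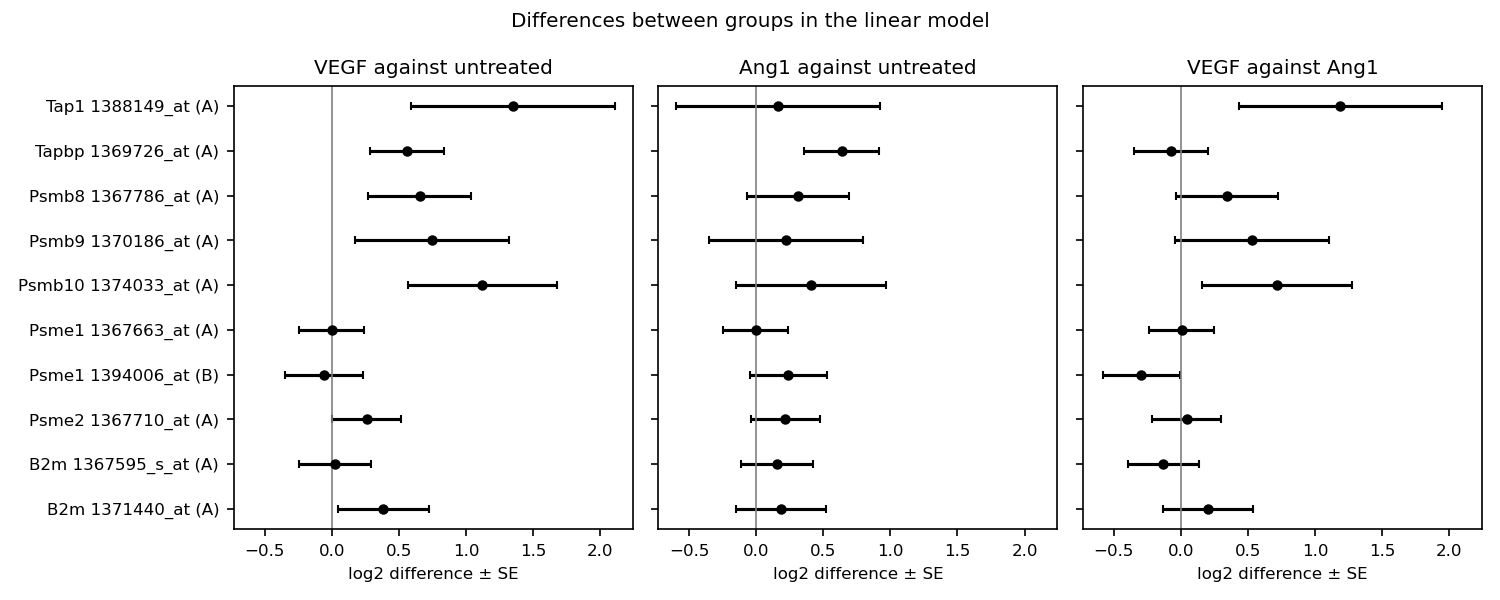
Log2 differences of the 10 tested member probe sets in the 3 comparisons, as points with bars of 1 SE from limma. Tap1, Psmb10, Psmb9, Psmb8 and Tapbp lie at 0.56 to 1.35 for VEGF against untreated, Tapbp at 0.64 leads Ang1 against untreated, and Psme1 lies near 0 in both on array A.

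Tap1, which with Tap2 forms the channel for peptides, showed the largest VEGF difference of the members. Its tested probe set (1388149_at) had levels of 7.93, 8.10 and 7.55 in VEGF RNAs, 7.41, 4.92 and 7.68 in Ang1 RNAs and 7.42, 5.00 and 7.10 in untreated RNAs. Behind these stood deposited signals of 226.1, 258.3 and 181.2 in VEGF RNAs, 153.5, 27.7 and 187.9 in Ang1 RNAs and 145.3, 13.3 and 110.6 in untreated RNAs. The VEGF values lay close together and above all untreated values, whereas Ang1 replicate 2 and untreated replicate 2, the RNAs that stood apart, each lay more than 2 log2 units under the rest of their group. The means were 7.86 ± 0.28 in VEGF, 6.67 ± 1.52 in Ang1 and 6.51 ± 1.31 in untreated RNAs (SD, n = 3 each).

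The Tap1 difference for VEGF against untreated was 1.35 ± 0.76 (SE, 2.55-fold, 95% confidence interval -0.33 to 3.03), with an adjusted p of 1.00 and an unadjusted p of 0.103 in limma. With the replicate block it was 1.35 ± 0.57 (limma unadjusted p = 0.0390, adjusted p = 1.00). Without untreated replicate 2 it was 0.60, and without both RNAs that stood apart 0.63 ± 0.27, where the unadjusted limma p was 0.0424 and the adjusted p 1.00. For Ang1 against untreated it was 0.16 ± 0.76 (adjusted p = 0.990 in limma), and single RNAs set its sign: -0.60 without untreated replicate 2 and 1.05 without Ang1 replicate 2. VEGF against Ang1 gave 1.19 ± 0.76 (adjusted p = 0.973 in limma) and 0.33 without Ang1 replicate 2.

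The second Tap1 probe set (1375379_at) read near the floor, at the 17.7th percentile of array A. Its levels were 5.95, 4.41 and 5.41 in VEGF RNAs, 5.38, 6.44 and 5.10 in Ang1 RNAs and 4.63, 6.36 and 4.35 in untreated RNAs. Here the highest values belonged to the same RNAs that were lowest in the brighter probe set, so the probe sets of 1 gene ran opposite ways across RNAs. Tap2, the partner subunit, was read by 1 probe set (1368732_at) under the filter, with levels of 6.29, 5.53 and 6.35 in VEGF RNAs, 4.70, 4.90 and 6.44 in Ang1 RNAs and 5.91, 4.77 and 6.08 in untreated RNAs. In a fit without the filter its VEGF difference was 0.47 ± 0.51 and its Ang1 difference -0.24 ± 0.51, both within their errors.

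Tapbp encodes tapasin, the chaperone that bridges the transporter and the class I heavy chain, and it was the member in which all 6 treated RNAs exceeded the untreated ones. Its levels (1369726_at) were 7.98, 7.77 and 7.85 in VEGF RNAs, 8.20, 7.89 and 7.74 in Ang1 RNAs and 7.50, 6.94 and 7.48 in untreated RNAs. The lowest treated value, 7.74, stood above the highest untreated value, 7.50. How many of all probe sets separated all 6 treated RNAs in this way was not counted. The means were 7.86 ± 0.11 in VEGF, 7.94 ± 0.23 in Ang1 and 7.31 ± 0.32 in untreated RNAs (SD, n = 3 each).

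For Tapbp the Ang1 difference was 0.64 ± 0.28 (1.55-fold, 95% confidence interval 0.02 to 1.25; limma unadjusted p = 0.044, adjusted p = 0.951). The VEGF difference was 0.56 ± 0.28 (1.47-fold; limma unadjusted p = 0.070, adjusted p = 1.00). VEGF minus Ang1 was -0.08 with a 95% confidence interval of -0.69 to 0.54, so the interval also holds differences as large as the treatment differences themselves. The Ang1 difference stayed between 0.45 and 0.84 over the 19 alternatives run and the VEGF difference between 0.37 and 0.71.

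**Figure D3:**
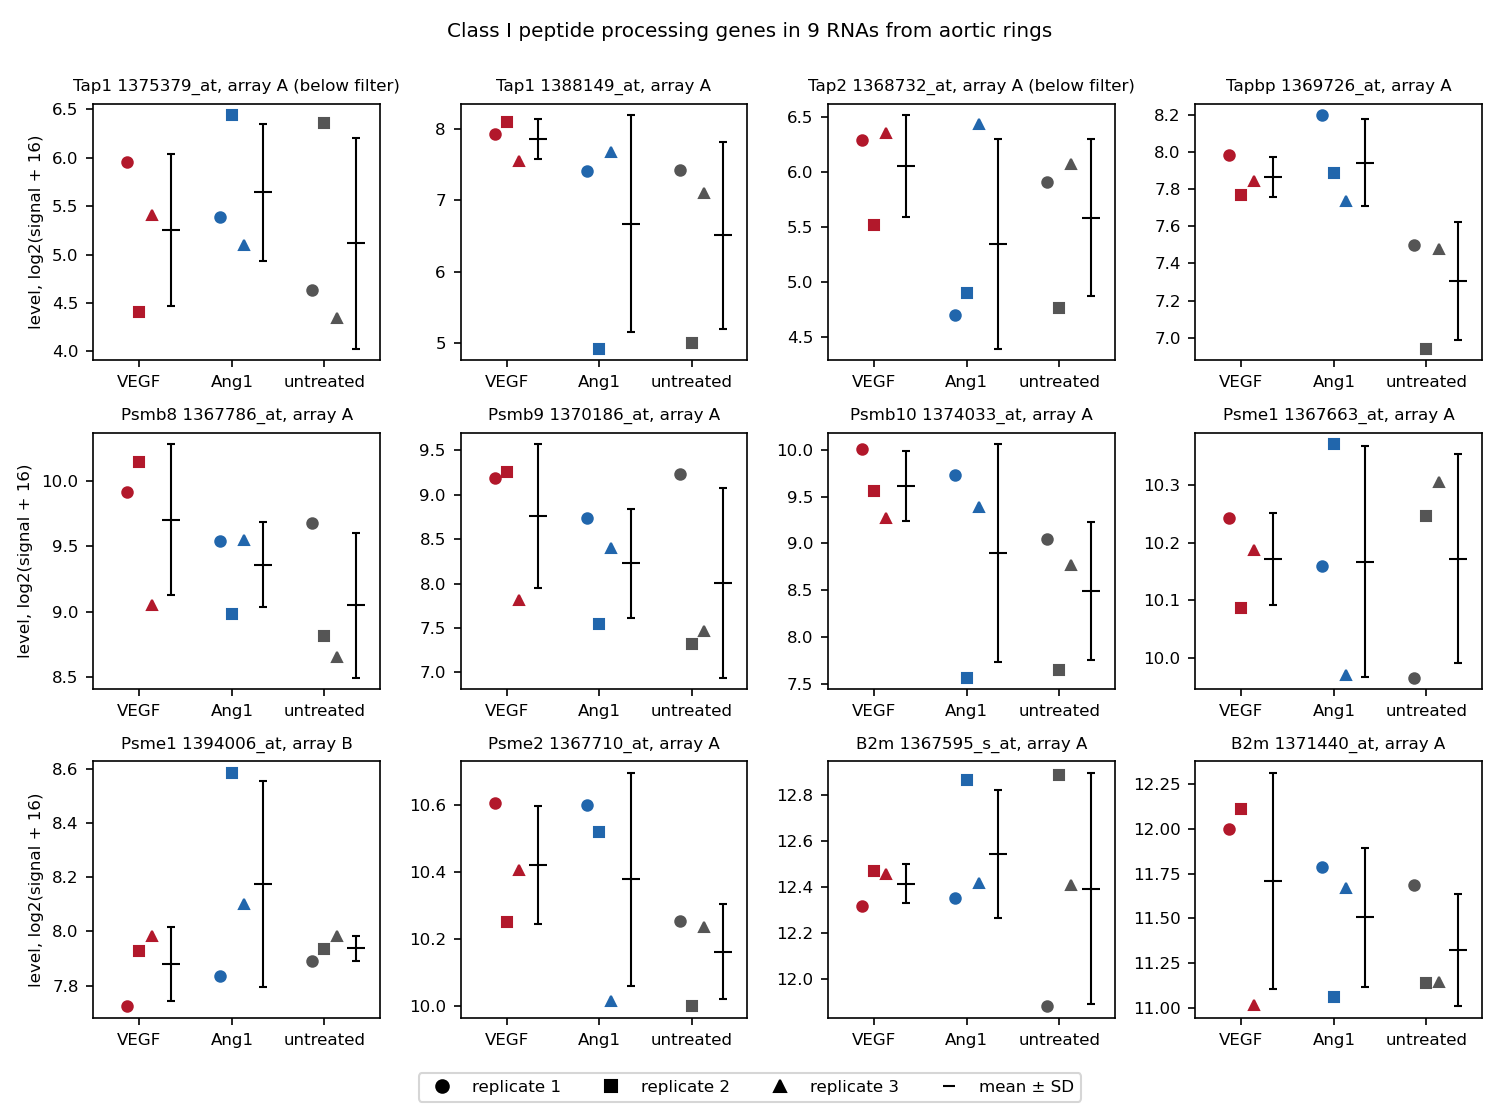
Level of each of the 12 member probe sets, log2(signal + 16), in VEGF, Ang1 and untreated RNAs, with 1 panel per probe set, marker shape for the replicate number, and mean ± SD beside each group. In Tap1 1388149_at and Psmb10, replicate 2 of the Ang1 and untreated groups lies far below its group, and in Tapbp all 6 treated values lie above 7.50, the highest untreated one.

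Among the immunoproteasome subunits Psmb10, which replaces the constitutive subunit Psmb7, had the largest VEGF difference. Its levels (1374033_at) were 10.01, 9.56 and 9.27 in VEGF RNAs, 9.73, 7.56 and 9.39 in Ang1 RNAs and 9.05, 7.65 and 8.77 in untreated RNAs. All VEGF values lay above all untreated ones, and Ang1 values overlapped them through replicate 2. The means were 9.61 ± 0.38 in VEGF, 8.90 ± 1.16 in Ang1 and 8.49 ± 0.74 in untreated RNAs (SD, n = 3 each).

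The Psmb10 difference was 1.12 ± 0.56 for VEGF against untreated (2.18-fold; limma unadjusted p = 0.071, adjusted p = 1.00), and 0.71 ± 0.30 without both RNAs that stood apart (limma unadjusted p = 0.0413, adjusted p = 1.00). With the replicate block it was 1.12 ± 0.39 (limma unadjusted p = 0.0174, adjusted p = 1.00). It was 0.68 without untreated replicate 2 alone. For Ang1 against untreated it was 0.41 ± 0.56 (adjusted p = 0.954 in limma), 1.11 without Ang1 replicate 2 and -0.02 without untreated replicate 2. VEGF against Ang1 gave 0.72 ± 0.56, and 0.05 without Ang1 replicate 2.

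Psmb8 and Psmb9, neighbours of the transporter genes, replace the constitutive subunits Psmb5 and Psmb6. Psmb8 (1367786_at) read 9.92, 10.14 and 9.05 in VEGF RNAs, 9.54, 8.99 and 9.55 in Ang1 RNAs and 9.68, 8.81 and 8.66 in untreated RNAs. Psmb9 (1370186_at) read 9.19, 9.26 and 7.82 in VEGF RNAs, 8.74, 7.55 and 8.40 in Ang1 RNAs and 9.24, 7.32 and 7.47 in untreated RNAs. In both genes VEGF replicate 3 fell among the low values and untreated replicate 1 among the high ones, so the groups overlapped. Within replicate numbers Psmb8 was higher in VEGF than in untreated RNA in 3 of 3 pairs and Psmb9 in 2 of 3.

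The VEGF differences were 0.65 ± 0.38 for Psmb8 and 0.75 ± 0.57 for Psmb9 (limma adjusted p = 1.00 for both), and the Ang1 differences were 0.31 ± 0.38 and 0.22 ± 0.57. Single RNAs weighed on both. For VEGF, Psmb8 was 0.99 without VEGF replicate 3 and 0.44 without VEGF replicate 2, and Psmb9 was 1.35 without untreated replicate 1 and 0.40 without untreated replicate 2. Direct comparison of VEGF with Ang1 gave 0.34 ± 0.38 for Psmb8 and 0.53 ± 0.57 for Psmb9.

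**Figure D4:**
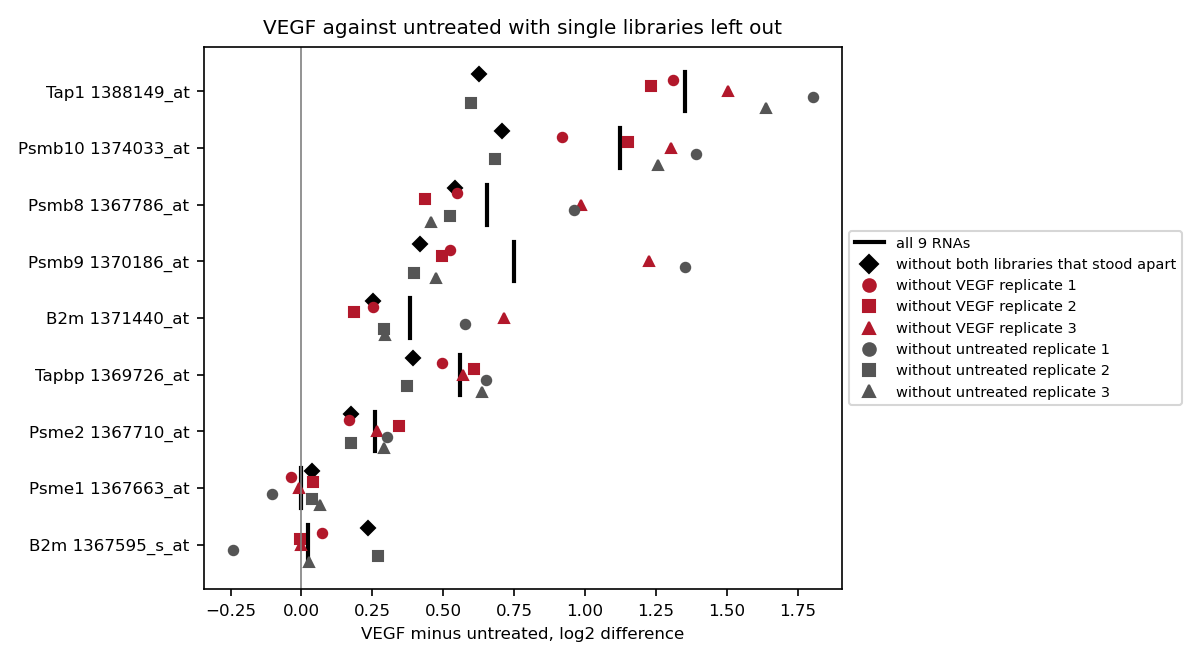
VEGF minus untreated log2 difference of the 9 tested member probe sets on array A, with all 9 RNAs (vertical bars), with each VEGF or untreated RNA left out, and without both RNAs that stood apart. Tap1 spans 0.60 to 1.80 and Psmb10 0.68 to 1.39, and the smallest of each is the value without untreated replicate 2.

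The activator subunits Psme1 and Psme2 form a ring that opens the proteasome and favours the release of peptides. Psme1 hardly varied on array A, where its probe set (1367663_at) read 10.24, 10.09 and 10.19 in VEGF RNAs, 10.16, 10.37 and 9.97 in Ang1 RNAs and 9.97, 10.25 and 10.31 in untreated RNAs. The difference was -0.00 ± 0.24 for VEGF against untreated, with a 95% confidence interval of -0.54 to 0.53, and -0.01 ± 0.24 for Ang1. Its probe set on array B (1394006_at) read 7.72, 7.93 and 7.98 in VEGF RNAs, 7.83, 8.59 and 8.10 in Ang1 RNAs and 7.89, 7.94 and 7.98 in untreated RNAs.

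On array B the Psme1 difference was -0.06 ± 0.29 for VEGF and 0.24 ± 0.29 for Ang1, neither called (limma adjusted p = 1.00 and 0.711), beside 0% of 9166 tested probe sets called in either comparison. At an unadjusted p below 0.05 limma counted 0 of 1 member, beside 0.72% of array B probe sets for VEGF against untreated, 10.5% for Ang1 against untreated and 8.48% for VEGF against Ang1. Psme2 (1367710_at) read 10.60, 10.25 and 10.41 in VEGF RNAs, 10.60, 10.52 and 10.01 in Ang1 RNAs and 10.25, 10.00 and 10.23 in untreated RNAs. These groups overlapped, and the Psme2 differences were 0.26 ± 0.26 for VEGF and 0.22 ± 0.26 for Ang1. Centring the arrays on the median in place of quantile normalisation turned the sign of both, to -0.0029 and -0.31, and the same centring moved the median of all probe sets to -0.08 for VEGF and -0.23 for Ang1.

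B2m, the light chain that every class I molecule carries, was read by 2 bright probe sets that did not run together. The first (1367595_s_at) read 12.32, 12.47 and 12.46 in VEGF RNAs, 12.35, 12.86 and 12.42 in Ang1 RNAs and 11.88, 12.89 and 12.41 in untreated RNAs. The second (1371440_at) read 12.00, 12.11 and 11.02 in VEGF RNAs, 11.78, 11.06 and 11.67 in Ang1 RNAs and 11.69, 11.14 and 11.15 in untreated RNAs. The first was highest in the RNAs that stood apart and lowest in untreated replicate 1, where the second was high within its group.

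VEGF against untreated gave 0.02 ± 0.27 for the first B2m probe set and 0.38 ± 0.34 for the second (limma adjusted p = 1.00 for both), and Ang1 gave 0.15 ± 0.27 and 0.18 ± 0.34. The correlation of the 2 probe sets over the 9 RNAs was -0.51 (Spearman's rho -0.48) and over the 7 RNAs left without those that stood apart -0.14. The suffix of the first marks probes that can match more than 1 transcript. Centring on the median gave -0.31 for the first and -0.03 for the second in the VEGF comparison.

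Across the 9 RNAs some members ran more closely together than others, without forming separate groups. All correlations here are descriptions over 9 RNAs from 3 animals that share their normalisation, and r over the 7 RNAs without those that stood apart is given beside each. Psmb8 and Psmb9 ran together most closely, with r = 0.96 (rho 0.95; 0.95 over 7 RNAs), and each followed the second B2m probe set, with r = 0.95 (rho 0.78; 0.94 over 7) for Psmb8 and 0.93 (rho 0.80; 0.91 over 7) for Psmb9. Psmb10 and Tap1 gave r = 0.95 (rho 0.80), which was 0.71 over the 7 RNAs, and the 2 RNAs left out were far below the rest in both genes. Each was also linked to the immunoproteasome pair, with r = 0.68 (rho 0.85; 0.84 over 7) for Psmb8 and Tap1 and r = 0.77 (rho 0.70; 0.61 over 7) for Psmb9 and Psmb10, and the second B2m probe set gave r = 0.74 (rho 0.75; 0.70 over 7) with Psmb10. Tapbp ran with Psme2 (r = 0.80, rho 0.90; 0.73 over 7) and with Psmb10 (r = 0.61, rho 0.58; 0.85 over 7). Psme1 and Psme2, subunits of 1 complex and neighbours on the chromosome, gave only 0.40 (rho 0.10; 0.56 over 7).

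**Figure D5:**
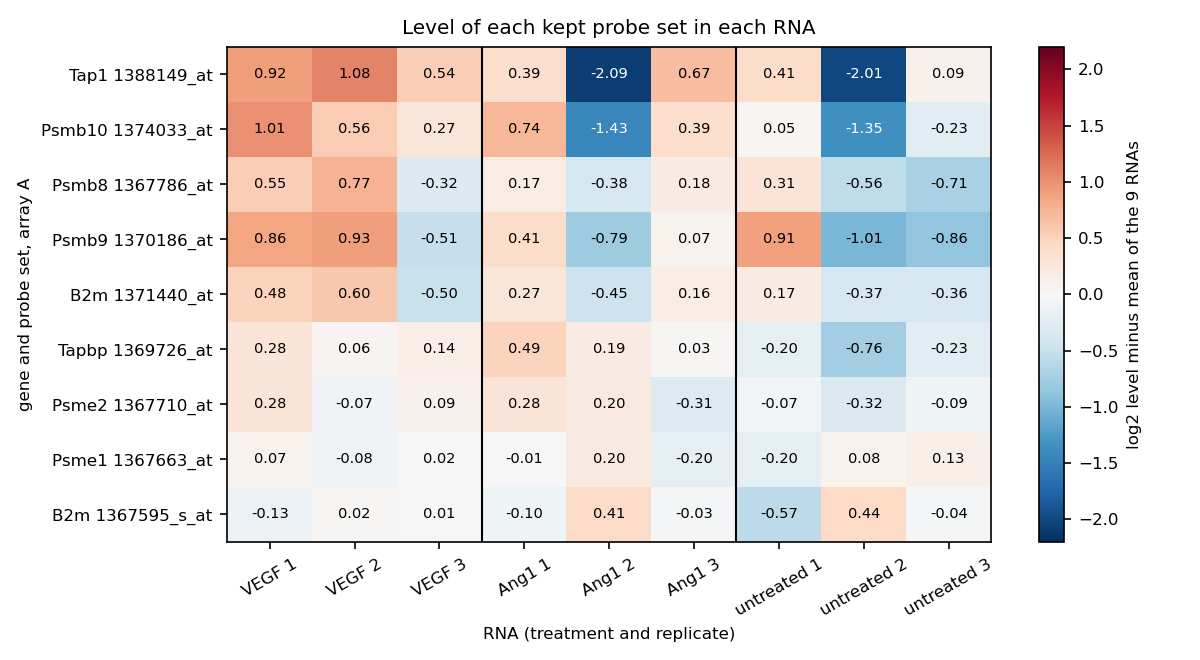
Log2 level minus the mean of the 9 RNAs for each of the 9 tested member probe sets on array A, with 1 column per RNA in the order VEGF, Ang1 and untreated. Psmb8, Psmb9 and the second B2m probe set share a pattern with low values in VEGF replicate 3, and Tap1 and Psmb10 share low values of -2.09 and -1.43 in Ang1 replicate 2 and -2.01 and -1.35 in untreated replicate 2.

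The mean over the 8 member genes relative to the 9 RNAs was 0.48, 0.41 and 0.03 in VEGF RNAs, 0.30, -0.46 and 0.10 in Ang1 RNAs and 0.08, -0.69 and -0.24 in untreated RNAs. Untreated replicate 1 lay above VEGF replicate 3, so the groups overlapped, while within replicate numbers the mean was higher in 3 of 3 VEGF RNAs and in 3 of 3 Ang1 RNAs than in the untreated RNA. Among 7995 other probe sets the profiles most like the members' mean standardised level over the 9 RNAs were those of Ywhag (r = 0.90, rho 0.80; 0.83 over 7 RNAs), Fbxw11 (0.89, 0.87; 0.89), Mif4gd (0.88, 0.88; 0.92), Hbegf (0.88, 0.77; 0.89), Cdc20 (0.88, 0.78; 0.83) and Mtfr1l (0.88, 0.90; 0.79).

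The constitutive proteasome, which works in all cells, gave a smaller median. Of 13 standard core genes measured on array A, all passed the filter, 10 were higher and 3 lower with VEGF, 7 higher and 6 lower with Ang1, with medians of 0.06 and 0.01, and 0 were called in either. Psmb5, the counterpart of Psmb8, had differences of 0.12 ± 0.33 with VEGF and -0.03 ± 0.33 with Ang1 on array A. Its 2 probe sets on array B gave 1.08 ± 0.52 (1385531_at) and 0.36 ± 0.61 (1385532_x_at) with VEGF and 0.85 ± 0.52 and 0.36 ± 0.61 with Ang1, with overlapping groups and none called (limma adjusted p = 1.00 for both with VEGF and 0.508 and 0.789 with Ang1). Psmb7, the counterpart of Psmb10, read 11.18, 11.03 and 9.42 in VEGF RNAs, 11.05, 6.75 and 10.71 in Ang1 RNAs and 11.23, 8.54 and 9.75 in untreated RNAs. Its very low values belonged to Ang1 replicate 2 and untreated replicate 2, as in Psmb10, and its differences were 0.70 ± 1.06 with VEGF and -0.34 with Ang1. Psmb6 was not analysed here.

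Other proteasome regulators were mainly subunits of the cap that feeds ubiquitin-tagged proteins to the core. They numbered 20 on array A, with 15 higher and 5 lower for VEGF and 8 higher and 12 lower for Ang1 (medians 0.19 and -0.11, 0 called). On array B they numbered 6, with 3 higher and 3 lower for VEGF and 2 higher and 4 lower for Ang1 (medians 0.02 and -0.38, 0 called). On array A Psmc3 (0.81 ± 0.55) led and Psmd10 (-0.63 ± 0.36) trailed with VEGF, and Psmc4 (0.82 ± 0.37) and Psmc5 (-1.25 ± 0.58) did so with Ang1. The Psmc4 probe set on array B had the opposite sign, at -0.34 ± 0.37 with Ang1. The endoplasmic reticulum proteins that fold and load class I molecules, 8 of 9 past the filter, had 7 higher and 1 lower in each comparison, with medians of 0.38 and 0.15 and 0 called. Among them Calr, the chaperone calreticulin, had 0.78 ± 0.76 with VEGF, Sec61a1, the translocation channel, had 1.16 ± 0.84 with VEGF, and Pdia3, the disulfide isomerase of the loading complex, had 0.98 ± 0.61 with Ang1. Each of these differences was below 2 SE. The mean level of the folding and loading list on array A relative to the 9 RNAs was 0.26, 0.15 and 0.24 in VEGF RNAs, 0.05, -0.43 and 0.35 in Ang1 RNAs and 0.09, -0.92 and 0.21 in untreated RNAs. Its lowest values belonged to untreated replicate 2 and Ang1 replicate 2, the RNAs that stood apart.

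Of the class I heavy chains and related molecules 8 of 15 passed the filter on array A. There 5 were higher and 3 lower in each comparison, with medians of 0.11 for VEGF and 0.23 for Ang1 and 0 called. On array B 3 passed it, with 1 higher and 2 lower in each comparison, medians of -0.13 and -0.42 and 0 called. RT1-T24-4 (0.50 ± 0.81) was highest and Cd1d1 (-0.58 ± 0.37) lowest with VEGF. Rat RT1 genes are near-identical in sequence, so their probe sets may read one another's transcripts. In both comparisons higher and lower members of this list stood side by side.

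Genes of interferon signalling and class I regulation had 15 of 21 measured members past the filter on array A. Of these, 11 were higher and 4 lower for VEGF (median 0.32) and 10 higher and 5 lower for Ang1 (median 0.12), with 0 called. On array B 7 of 8 passed it, with 6 higher and 1 lower for VEGF (median 0.17), 3 higher and 4 lower for Ang1 (median -0.10) and 0 called. Irf1, the interferon-induced factor that binds the response element, read 8.16, 8.63 and 8.36 in VEGF RNAs, 8.57, 8.86 and 8.75 in Ang1 RNAs and 7.68, 7.998 and 7.86 in untreated RNAs. As in Tapbp, all 6 treated values exceeded the untreated ones. The share of all probe sets that did so was not counted. All 3 treated values lay above all untreated ones in 3.59% of array A probe sets with VEGF and in 3.52% with Ang1. The Irf1 difference was 0.88 ± 0.26 for Ang1 (limma unadjusted p = 0.007, adjusted p = 0.951) and 0.54 ± 0.26 for VEGF (limma unadjusted p = 0.067, adjusted p = 1.00).

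The interferon-gamma receptor chains Ifngr1 (0.99 ± 0.41) and Ifngr2 (0.82 ± 0.29) were highest with VEGF, with all VEGF values above all untreated ones and limma unadjusted p of 0.036 and 0.017 (adjusted p = 1.00 for both). Stat2, a transducer of type I interferon signals, was lowest in both comparisons, at -0.89 ± 0.40 with VEGF and -1.72 ± 0.40 with Ang1. Its limma unadjusted p was 0.052 with VEGF and 0.0015 with Ang1 (adjusted p = 1.00 and 0.951). All Ang1 values of Stat2 lay below all untreated ones, beside 5.57% of all array A probe sets. Ifng itself lay below the filter, with deposited signals of 8.4, 23.2 and 4.6 in VEGF RNAs, 28.9, 146.5 and 19.1 in Ang1 RNAs and 14.8, 21.6 and 18.9 in untreated RNAs. The highest of these belonged to Ang1 replicate 2. Nlrc5 was not analysed here.

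Macrophages express these genes strongly, so their markers are given beside the members; in such bulk RNA fewer cells of a type and less RNA per cell cannot be told apart. On array A 14 of 15 macrophage markers passed the filter (Itgam was below it). Of these, 10 were higher and 4 lower with VEGF and 11 higher and 3 lower with Ang1, with medians of 0.23 and 0.12 and 0 called. On array B 4 passed it, with 3 higher and 1 lower for VEGF, 2 higher and 2 lower for Ang1, medians of 0.37 and 0.45 and 0 called. On array A their mean level relative to the 9 RNAs was 0.21, 0.18 and 0.35 in VEGF RNAs, 0.19, -0.30 and 0.13 in Ang1 RNAs and 0.29, -0.39 and -0.66 in untreated RNAs. Summed signal ranged from 15329 to 25335 in VEGF RNAs, from 15897 to 30084 in Ang1 RNAs and from 11978 to 21388 in untreated RNAs. As for the members, the mean was below 0 in Ang1 replicate 2 and untreated replicates 2 and 3 and above 0 in the other RNAs, and the part of macrophages in the member differences was not tested. Nor was that of the actin 3' to 5' ratio, which was higher in every VEGF RNA than in any untreated one. The lowest actin ratio, 1.86, belonged to untreated replicate 2, whose Gapdh 3' signal was 64.4. The Gapdh 3' to 5' ratio on array A overlapped between these groups, at 9.26, 11.1 and 15.1 in VEGF RNAs and 11.9, 1.70 and 9.11 in untreated RNAs.

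Endothelial cells carry the receptors of both factors. On array A their markers had 7 higher and 3 lower of 10 with VEGF (median 0.25) and 3 higher and 7 lower with Ang1 (median -0.16). Their mean level there relative to the 9 RNAs was 0.31, -0.07 and 0.44 in VEGF RNAs, 0.0015, -0.86 and 0.36 in Ang1 RNAs and 0.27, -0.78 and 0.33 in untreated RNAs. The lowest of these belonged to Ang1 replicate 2 and untreated replicate 2, the RNAs that stood apart, and the remaining values overlapped between groups. On array B the endothelial markers had 1 higher and 2 lower of 3 with VEGF (median -0.26) and 0 higher and 3 lower with Ang1 (median -0.75). Smooth muscle markers on array A had 3 higher and 7 lower of 10 with VEGF (median -0.28) and 2 higher and 8 lower with Ang1 (median -0.06). On array B 1 was higher and 2 lower of 3 in each comparison (medians -0.02 and -0.09). None of these was called. At an unadjusted limma p below 0.05 the lists from the standard proteasome to the markers gave at most 2 genes each per comparison on array A. The shares of all array A probe sets were 1.66% for VEGF against untreated, 3.18% for Ang1 against untreated and 1.99% for VEGF against Ang1. Of the 15 interferon list genes these were Ifngr1 and Ifngr2 with VEGF and Irf1 and Stat2 with Ang1. On array A each list's mean standardised level was correlated with the members' mean standardised level over the 9 RNAs. The correlation was 0.78 for interferon signalling genes (rho 0.77, and 0.69 over 7 RNAs) and 0.69 for folding and loading proteins (rho 0.48, and 0.25 over 7). It was 0.45 for the standard core (rho 0.28, and 0.035 over 7), 0.44 for proteasome regulators (rho 0.17, and -0.067 over 7) and 0.35 for heavy chains (rho 0.37, and 0.43 over 7). For the marker lists it was 0.37 in endothelial (rho 0.17; -0.45 over 7), 0.34 in macrophage (rho 0.43; 0.33 over 7), 0.34 in fibroblast (rho 0.38; 0.13 over 7) and -0.09 in smooth muscle (rho -0.23; -0.58 over 7).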

How the data were processed

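The authors deposited linear intensities, 1 per probe set, which MAS5 (version not given) had produced per the submitters' processing notes. A mean trimmed by 2% at both ends came to 250 for 17 of 18 arrays, and to 94.8 for the array B of Ang1 replicate 3. Log2(signal + 16) was quantile normalised within each array type, since medians of array A covered 0.76 log2 units and those of array B 1.59, past the limit of 0.3. Without control probe sets, those whose mean level reached the 40th percentile were kept, which left 9520 (array A) and 9166 (array B). Gene names come from the platform annotation, updated by gene ID, and a probe set with several genes named none (312 on array A and 100 on array B).

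Each array type was fitted in 1 linear model over 9 arrays with limma 3.58.1 in R 4.3.3, with an intensity trend, and p-values were adjusted by the Benjamini-Hochberg method over all kept probe sets at 0.05. The scripts were tested on simulated data. The number of arrays limits the precision, and an exact test of 3 against 3 RNAs cannot go below p = 0.1. The labels do not pair the RNAs, and the values leave a pairing by replicate number uncertain. In both comparisons with untreated, deviations of same-number RNAs from their group means correlated above 0.1 in 3 of 3 pairs on each array type. The correlations were 0.14 to 0.41 for VEGF and 0.34 to 0.49 for Ang1 on array A, and 0.16 to 0.29 and 0.14 to 0.25 on array B. For VEGF against Ang1 1 of 3 same-number pairs correlated above 0.1. The 0.49 belonged to Ang1 replicate 2 and untreated replicate 2, the RNAs that stood apart. On array A Ang1 replicate 3 correlated at 0.33 with untreated replicate 1 and at 0.34 with untreated replicate 3. The members, the lists and the motifs were chosen with earlier results of these data known. All probe sets of the members were named, and of each list beside them the standard counterparts of the immunoproteasome subunits, the interferon genes given and at most the 2 highest and 2 lowest genes per comparison; the profiles most like the members' were the 6 highest correlations. Lists covered the standard proteasome core, proteasome regulators, class I folding and loading, class I heavy chains, interferon signalling, and endothelial, smooth muscle, fibroblast, macrophage, dendritic and lymphocyte markers. The last 2 had 1 and 2 genes past the filter on array A and gave no call, and of 9 fibroblast markers 6 were higher and 3 lower with VEGF and 4 higher and 5 lower with Ang1, with 0 called. Alternatives were the values as deposited, median centring, pseudocounts of 1 and 64, 2 other filters, no trend, array weights, a replicate block and leaving out RNAs. Array B held fewer than 3 member genes, so it has no median.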

Additional observations from a re-analysis of the deposited data

How the results depend on the processing

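Of the 19 alternatives run for each result, none called a member at the adjusted threshold, and array weights called 6 probe sets for Ang1 against untreated and 24 for VEGF against Ang1 on array A. The VEGF against untreated differences of Tap1, Psmb10, Psmb9, Psmb8 and Tapbp and the Ang1 against untreated difference of Tapbp stayed above 0 in 19 of 19. The median over the member genes ran over single RNAs left out from 0.39 to 0.81 for VEGF against untreated, 0.052 to 0.62 for Ang1 against untreated and 0.10 to 0.36 for VEGF against Ang1. At an unadjusted p below 0.05, limma counted 0 of 9 members for VEGF against untreated, but 4 with array weights, 3 with the values as deposited, and 2 each without both RNAs that stood apart, without Ang1 replicate 2, without VEGF replicate 3 and without untreated replicate 1; the cause was not tested. A fit with the replicate block counted 2 of 9 members there, left the Tap1 difference for VEGF at 1.35, and moved the count of all array A probe sets at an unadjusted limma p below 0.05 to 297, against 158 without it. It changed no other call of a member against untreated, and 0 passed the adjusted threshold.

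Signs turned as follows, and the cause was not tested. With the values as deposited, B2m 1367595_s_at was -0.16 for VEGF against untreated, B2m 1371440_at -0.13 for Ang1 against untreated, and Psme1 on array B -0.023 for Ang1 against untreated. Median centring gave -0.31 (B2m 1367595_s_at), -0.032 (B2m 1371440_at) and -0.0029 (Psme2) for VEGF against untreated, -0.045 (B2m 1367595_s_at), -0.44 (B2m 1371440_at), -0.31 (Psme2) and -0.010 (Psmb8) for Ang1 against untreated, and 0.028 (Tapbp) for VEGF against Ang1. Array weights gave 0.000324 (Psme1) for VEGF against untreated, and 0.053 (B2m 1367595_s_at) and -0.13 (Psme2) for VEGF against Ang1. Without both RNAs that stood apart, Psme1 was 0.0372 for VEGF against untreated, and B2m 1367595_s_at 0.021 and B2m 1371440_at -0.033 for VEGF against Ang1. Over single RNAs left out, VEGF against untreated ran from -0.24 to 0.27 for B2m 1367595_s_at, -0.10 to 0.066 for Psme1 on array A and -0.11 to 0.018 for Psme1 on array B. Ang1 against untreated ran from -0.60 to 1.05 for Tap1, -0.019 to 1.11 for Psmb10, -0.12 to 0.83 for Psmb9, -0.11 to 0.094 for Psme1 and -0.11 to 0.41 for B2m 1367595_s_at. VEGF against Ang1 ran from -0.095 to 0.11 for Psme1, -0.14 to 0.15 for Psme2, -0.18 to 0.051 for Tapbp, -0.23 to 0.022 for B2m 1367595_s_at and -0.032 to 0.54 for B2m 1371440_at.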
